A study of Mus musculus with 16 samples.

Results

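The metallothioneins Mt1 and Mt2, the transcription factor gene Mtf1, the zinc transporter family genes Slc30a1 and Slc30a10, and the zinc importers Slc39a4 and Slc39a14 were followed across liver tumors and the peri-tumor liver around them. These are 7 of the 54838 genes in the count table, picked by name, and all 7 passed the filter on low counts that left 14865 genes for testing. They were picked because earlier work on these same libraries had shown that Mt1 and Mt2 differed between treatments mainly in peri-tumor liver. Differences between treatments are therefore described for the 7 genes and not tested.

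RNA-seq was done on 16 libraries from 8 mice of the HrasG12V genotype, which carries an activated Ras oncogene that drives liver tumors. Each mouse gave a tumor and the peri-tumor tissue beside it. The 4 groups, of 4 libraries each, were tumors of mice given a traditional Chinese medicine decoction (TCM), tumors of control mice, peri-tumor liver of TCM mice and peri-tumor liver of control mice. All samples are labelled 3 months, without saying whether this is age or time on treatment. The series-wide protocol also names DEN, a liver carcinogen, and does not say which mice received it. The composition and dose of the decoction, the promoter behind the Ras gene and what control mice were given are not stated. All groups share the Ras genotype, so no library stands for a liver free of the oncogene.

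The libraries held between 13947483 and 16194224 counts assigned to genes. The 10 hepatocyte markers together reached at least 80500 CPM, the count of a gene scaled to a common library total, in every library. The summed 8 cholangiocyte markers lay between 525 and 2400 CPM in tumors and between 73.1 and 135 CPM in peri-tumor liver. The tumor of control mouse 4 stood apart in its 8 neutrophil markers, which summed to 72.8 CPM, the highest of the control tumors, whose median was 5.98 CPM. Where leaving out this mouse moved a named value by over 1.5 times, both values are given. These are bulk tissues, so fewer cells of a type and less RNA per cell cannot be told apart in any value that follows.

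Metallothioneins are small cysteine-rich proteins that bind zinc and copper and buffer free zinc in the cell. Zinc itself activates MTF1, a zinc finger protein that binds metal response elements (MREs) in the promoters of Mt1, Mt2 and Slc30a1. Mouse liver metallothionein transcription also answers to glucocorticoids, to interleukin-6 during the acute phase response and to oxidative stress. Proteins of the SLC30 (ZnT) family move zinc or manganese out of the cytosol, and those of the SLC39 (ZIP) family move metals into it. In hepatocytes ZIP14, made from Slc39a14, takes up zinc, manganese and iron.

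The promoters are shown because MREs tie several of these genes to zinc. RefSeq promoters on the GRCm38.p6 build matched 5 of the 7 genes, all on the plus strand, namely Mt1, Mt2, Mtf1, Slc30a1 and Slc30a10. Slc39a4 and Slc39a14 were not matched. A window of 300 bases, 250 before the RefSeq start and 50 after it, was searched on both strands for the MRE cores TGCACNC and TGCGCNC, where N is any base. Capitals mark these cores, which stand in reverse complement where they lie on the minus strand. The Mt1 promoter is at chr8:94178839-94179088 and the first bases after its start at chr8:94179089-94179118, both on the plus strand, written 5′ to 3′.
Mt1 promoter: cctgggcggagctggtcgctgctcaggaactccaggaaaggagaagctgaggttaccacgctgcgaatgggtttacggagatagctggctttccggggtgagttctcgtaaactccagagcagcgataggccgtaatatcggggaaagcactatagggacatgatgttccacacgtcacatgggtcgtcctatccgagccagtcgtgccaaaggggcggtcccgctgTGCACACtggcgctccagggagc
Mt1 after the start: tcTGCACTCcgcccgaaaagTGCGCTCggc
The Mt2 promoter is at chr8:94172368-94172617 and the first bases after its start at chr8:94172618-94172647, on the plus strand.
Mt2 promoter: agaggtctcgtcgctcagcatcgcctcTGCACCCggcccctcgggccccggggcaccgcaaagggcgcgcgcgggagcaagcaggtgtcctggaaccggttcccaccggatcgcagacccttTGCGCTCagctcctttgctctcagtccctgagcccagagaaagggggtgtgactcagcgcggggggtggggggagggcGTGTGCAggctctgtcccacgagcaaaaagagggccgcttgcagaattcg
Mt2 after the start: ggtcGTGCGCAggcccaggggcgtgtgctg
The Slc30a1 promoter is at chr1:191906531-191906780 and that of Slc30a10 at chr1:185454598-185454847, both on the plus strand.
Slc30a1 promoter: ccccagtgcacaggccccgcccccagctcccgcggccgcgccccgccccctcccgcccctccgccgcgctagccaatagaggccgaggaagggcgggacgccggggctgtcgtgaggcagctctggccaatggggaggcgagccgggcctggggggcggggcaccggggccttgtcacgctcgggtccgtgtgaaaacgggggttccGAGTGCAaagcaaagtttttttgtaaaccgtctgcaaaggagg
Slc30a10 promoter: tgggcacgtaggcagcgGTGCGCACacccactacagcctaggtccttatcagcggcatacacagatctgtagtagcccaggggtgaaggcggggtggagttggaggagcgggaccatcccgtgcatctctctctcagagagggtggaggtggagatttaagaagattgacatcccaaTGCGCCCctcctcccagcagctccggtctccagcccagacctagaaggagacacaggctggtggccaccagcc

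The Mt1 window held 3 cores and the Mt2 window held 4. The Slc30a1 window held 2 cores, of which the second lies past the printed stretch at bases 31 to 37 after the start. The Slc30a10 window held 3, of which 2 overlap on opposite strands. In the Mtf1 window neither core was present. Of all 32851 RefSeq promoter windows of this length, 25.7% held at least 1 core, 7.11% at least 2, 1.97% at least 3 and 0.517% at least 4. The letters TGACNNNGC, an antioxidant response element core, were found once in the Mt2 window and once in the Slc30a1 window, and in 12.4% of all windows. A match is a run of letters in this window and was not measured as a bound site, and the start sites used in these livers were not measured. Bases outside a window were not searched, so the counts of Mt1 and the other genes leave out any core beyond it.

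Mt1 (ENSMUSG00000031765) and Mt2 (ENSMUSG00000031762) lie side by side on chromosome 8, on the plus strand, at 94179082 to 94180327 and 94172664 to 94173568 in the GENCODE M21 annotation of GRCm38. They are 5513 bases apart. Gm45774 overlaps Mt2 on the opposite strand, and it is not stated whether reads were counted by strand, so reads of the 2 genes cannot be told apart. No 50-base word of the longest annotated transcript of either metallothionein was shared with another gene. Both metallothioneins had their lowest levels in peri-tumor liver of TCM mice and were far higher in the other 3 groups.

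Mt1 stood at 6.15, 15.99, 13.7 and 10.5 CPM in the peri-tumor livers of TCM mice 1 to 4, against 539.7, 493.8, 247.7 and 211.4 CPM in those of control mice 1 to 4. The lowest control liver lay far above the highest TCM liver, so the groups did not overlap. The fitted log2 fold change of TCM over control was -5.01 ± 0.47 (SE, n = 4 each), which is a 32.2-fold lower level in TCM mice. In tumors Mt1 had 110.6, 203.2, 102.2 and 204.7 CPM in TCM mice, against 241.5, 217.4, 136.7 and 464.1 CPM in control mice. Here the groups overlapped, with a log2 fold change of -0.77 ± 0.40, or 1.71-fold lower in TCM mice.

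Mt2 followed the same order. Its peri-tumor levels were 2.38, 2.97, 3.40 and 2.30 CPM in TCM mice and 77.0, 180.3, 107.6 and 120.5 CPM in control mice. The TCM values rest on 36 to 45 counts per library and still lie well below every control liver. The log2 fold change was -5.46 ± 0.57, a 44.0-fold lower level in TCM mice. Tumor levels of Mt2 were 40.5, 62.5, 25.8 and 59.1 CPM in TCM mice and 34.6, 60.2, 55.0 and 218 CPM in control mice. The 2 sets of tumors overlapped, and the highest value belonged to control mouse 4. The log2 fold change between tumors was -0.97 ± 0.46, and -0.05 ± 0.31 without control mouse 4.

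**Figure D1:**
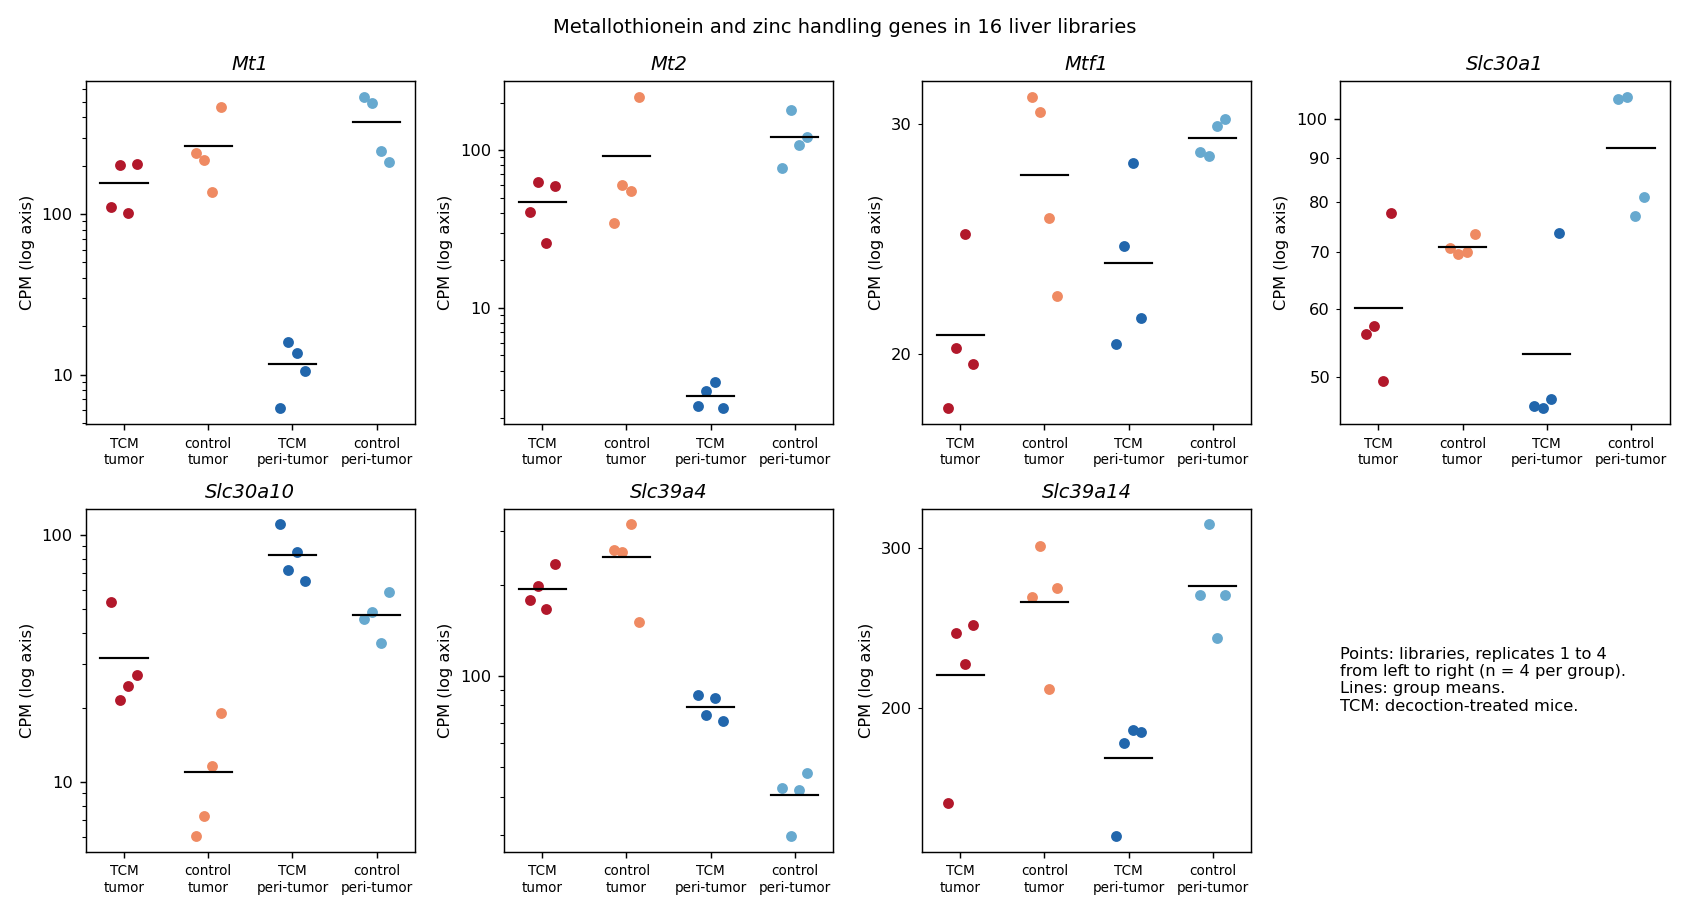
Level of each of the 7 genes in each library (points, CPM, log axis) by group, with the group mean as a bar and n = 4 mice per group. Mt1 and Mt2 form a separate low set in TCM peri-tumor liver, at 6.15 to 15.99 and 2.30 to 3.40 CPM, while Slc39a4 is high in all tumors and Slc30a10 is high in peri-tumor liver.

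Within the mouse, the tumor carried more metallothionein RNA than its own peri-tumor liver in every TCM mouse. The Mt1 level in the tumor divided by that in the peri-tumor liver was 18.0, 12.7, 7.47 and 19.5 in TCM mice 1 to 4, against 0.448, 0.440, 0.552 and 2.20 in control mice 1 to 4. For Mt2 the same ratio was 17.0, 21.1, 7.57 and 25.6 in TCM mice, against 0.450, 0.334, 0.511 and 1.81 in control mice. In control mice 1 to 3 the tumor was thus the lower of the tissues for both genes, and in control mouse 4 it was the higher.

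The fitted tumor over peri-tumor log2 fold change of Mt1 was 3.74 ± 0.45 (SE, n = 4 mice) in TCM mice and -0.49 ± 0.40 in control mice. That of Mt2 was 4.09 ± 0.54 in TCM mice and -0.40 ± 0.45 in control mice. Without control mouse 4 the control values were -1.14 ± 0.38 for Mt1 and -1.32 ± 0.34 for Mt2, so this mouse moved the size of the control difference and left its sign. Leaving out only the tumor of control mouse 4 gave -1.29 ± 0.31 for Mt2. Since each of these differences contains a peri-tumor group that led to the choice of the genes, they are not tested.

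**Figure D2:**
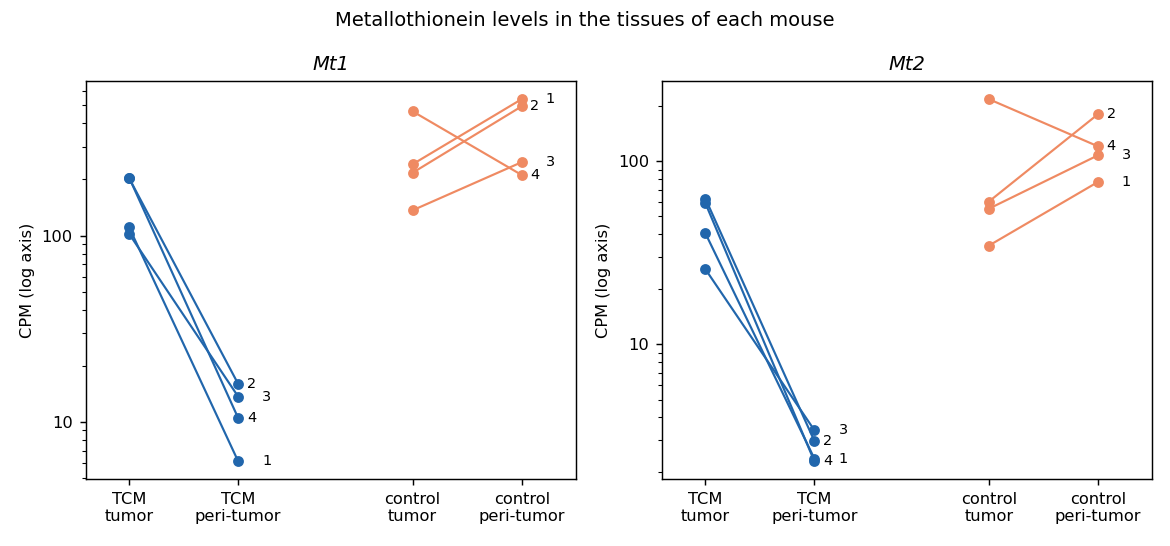
Mt1 and Mt2 in the tumor and the peri-tumor liver of each mouse (CPM, log axis), with a line joining the tissues of a mouse and its number at the line's end. All TCM lines drop steeply toward peri-tumor liver, whereas those of control mice 1 to 3 climb toward it and that of control mouse 4 drops by about the ratios of 2.20 and 1.81 given in the text.

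For both genes the order of mean levels was control peri-tumor liver, control tumors, TCM tumors and TCM peri-tumor liver, and only TCM peri-tumor liver did not overlap its neighbour. The balance between the 2 genes was similar in both tissues of some mice. The ratio of Mt1 to Mt2 counts was 6.98 in the tumor and 7.01 in the peri-tumor liver of control mouse 1. In control mouse 4 it was 2.13 in the tumor and 1.75 in the peri-tumor liver. In TCM mice the ratio ran between 2.73 and 3.97 in tumors and between 2.58 and 5.39 in peri-tumor liver, which lies within the range of the control mice. Together the 2 genes took 0.0123% to 0.0272% of counts in TCM tumors, 0.0207% to 0.0762% in control tumors, 0.000805% to 0.00186% in TCM peri-tumor liver and 0.0314% to 0.0709% in control peri-tumor liver.

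For levels between genes, CPM was divided by the length of the longest annotated transcript in kilobases. For Mt1 this is 1085 bases, and the exons of its annotated transcripts together cover its whole span of 1246 bases. Which transcripts these livers make was not measured, so levels between genes depend on this choice of length. On this scale Mt1 led the 7 genes in control peri-tumor liver, with 344 ± 154 CPM per kb (SD, n = 4), followed by Mt2 with 237 ± 84.8, and their ranges overlapped. In TCM peri-tumor liver, Mt1 had 10.7 ± 3.93 CPM per kb and Mt2 had 5.41 ± 1.02, and there Slc39a14 led with 34.5 ± 4.15, followed by Slc39a4 with 28.8 ± 2.76, with overlapping ranges. In TCM tumors Mt1 again led, at 143 ± 52.0 CPM per kb, ahead of Mt2 at 91.9 ± 33.5, Slc39a4 at 70.4 ± 10.7 and Slc39a14 at 42.5 ± 8.05, with overlap between Mt1 and Mt2 and between Mt2 and Slc39a4, and none between Slc39a4 and Slc39a14. In control tumors the order was Mt1 at 244 ± 129, Mt2 at 180 ± 166, Slc39a4 at 89.4 ± 25.1 and Slc39a14 at 51.1 ± 7.41, and here each range overlapped the next.

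Mtf1 (chromosome 4, 124802104 to 124849800, plus strand) encodes the zinc sensing factor itself and had the lowest level per length of the 7 genes in 3 of the 4 groups. In control tumors Slc30a10 was lower, at 1.88 ± 0.999 CPM per kb, against 3.6 ± 0.58 for Mtf1. Mtf1 stood at 18.2, 20.2, 24.7 and 19.6 CPM in TCM tumors and at 31.5, 30.7, 25.4 and 22.2 CPM in control tumors. In peri-tumor liver it had 20.4, 24.2, 28.04 and 21.3 CPM in TCM mice and 28.6, 28.4, 29.9 and 30.3 CPM in control mice. The peri-tumor groups just failed to meet, the TCM livers being lower, with a log2 fold change of -0.32, while the tumors overlapped at -0.41. The tumor over peri-tumor log2 fold change was -0.18 in TCM mice (edgeR, adjusted p = 0.321) and -0.09 in control mice (adjusted p = 0.599), and neither passed the threshold of 0.05. By mean level the groups ran from control peri-tumor liver, control tumors and TCM peri-tumor liver down to TCM tumors, with each group overlapping the next. 1110065P20Rik overlaps Mtf1 on the opposite strand and n-R5s192 on the same strand.

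Slc30a1 (chromosome 1, 191906767 to 191913247, plus strand) encodes ZnT1, the zinc exporter of the plasma membrane. Its peri-tumor levels were 46.1, 45.9, 47.1 and 73.6 CPM in TCM mice and 105.5, 106.3, 77.0 and 81.1 CPM in control mice. The groups did not overlap, although TCM mouse 4 came close to the lowest control liver, and the log2 fold change was -0.80, or 1.74-fold lower in TCM mice. Tumors had 56.1, 57.3, 49.4 and 77.6 CPM in TCM mice and 70.8, 69.5, 69.9 and 73.4 CPM in control mice. TCM mouse 4 was again the highest of its group, the tumors overlapped, and the log2 fold change was -0.24.

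In control mice every tumor had less Slc30a1 than every peri-tumor liver, with a log2 fold change of -0.38 ± 0.17 that did not pass the test (edgeR, adjusted p = 0.0801). It passed with the mouse as a block (-0.37 ± 0.11, adjusted p = 0.0202) and in a fit of the control groups alone (-0.40 ± 0.13, adjusted p = 0.0327). In TCM mice the log2 fold change was 0.18 (adjusted p = 0.461). The order of mean levels was control peri-tumor liver, control tumors, TCM tumors and TCM peri-tumor liver. Control peri-tumor liver and control tumors did not overlap, and each of the other neighbours did. 1700034H15Rik overlaps this gene on the opposite strand.

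Slc30a10 (chromosome 1, 185454848 to 185468762, plus strand) belongs to the same family, and its product exports manganese from hepatocytes. It was lower in tumors than in peri-tumor liver in both treatments and was the only one of the 7 genes whose TCM and control tumors did not overlap. Tumors had 53.8, 21.5, 24.5 and 27.1 CPM in TCM mice and 6.02, 7.27, 11.6 and 18.9 CPM in control mice. Peri-tumor livers had 110.7, 72.4, 85.5 and 65.3 CPM in TCM mice and 45.7, 49.0, 36.4 and 58.8 CPM in control mice. TCM samples were higher than control samples in both tissues, with log2 fold changes of 1.53 in tumors, or 2.89-fold, and 0.81 in peri-tumor liver.

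The tumor over peri-tumor log2 fold change of Slc30a10 was -1.39 ± 0.33 in TCM mice (edgeR, adjusted p = 0.00435) and -2.11 ± 0.35 in control mice (adjusted p = 0.000155). All 8 mice had the lower level in the tumor, and the tissues did not overlap in either treatment. The order of mean levels was TCM peri-tumor liver, control peri-tumor liver, TCM tumors and control tumors. Only the middle pair overlapped, through the tumor of TCM mouse 1. Gm2061 overlaps this gene on the opposite strand.

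Slc39a4 (chromosome 15, 76612383 to 76617384, minus strand) encodes ZIP4, the zinc importer best known from the gut, where its loss causes inherited zinc deficiency. It was higher in tumors than in peri-tumor liver in both treatments. Tumors had 177.5, 197.5, 166.5 and 233.4 CPM in TCM mice and 260.8, 255.6, 316.1 and 150.8 CPM in control mice. Peri-tumor livers had 86.5, 74.5, 84.9 and 71.1 CPM in TCM mice and 42.7, 29.7, 42.1 and 47.9 CPM in control mice. No tumor in either treatment came down to the level of any peri-tumor liver.

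Tumors exceeded peri-tumor liver 2.44-fold in TCM mice (log2 1.29 ± 0.20, edgeR, adjusted p = 0.000138) and 6.05-fold in control mice (log2 2.598 ± 0.20, adjusted p = 1.97e-07). Within the mouse the fold was 2.05, 2.65, 1.96 and 3.28 in TCM mice 1 to 4 and 6.10, 8.60, 7.5 and 3.15 in control mice 1 to 4, so control mouse 4 fell among the TCM mice. Between treatments, TCM peri-tumor liver was 1.95-fold higher with no overlap (log2 0.97), while the tumors overlapped (log2 -0.34). The order of mean levels was control tumors, TCM tumors, TCM peri-tumor liver and control peri-tumor liver, and only the tumors overlapped.

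Slc39a14 (chromosome 14, 70303469 to 70351425, minus strand) encodes ZIP14, which interleukin-6 is known to induce in mouse liver. Its peri-tumor levels were 144.8, 183, 189.4 and 188.4 CPM in TCM mice and 265.9, 318.1, 238.8 and 266.4 CPM in control mice. The groups did not overlap, and TCM livers were 1.54-fold lower (log2 -0.63). Tumors had 157.4, 241.5, 223.8 and 246.9 CPM in TCM mice and 264.7, 301.1, 210 and 270.6 CPM in control mice, with overlap and a log2 fold change of -0.27.

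The tumor over peri-tumor log2 fold change of Slc39a14 was 0.30 in TCM mice (edgeR, adjusted p = 0.148) and -0.06 in control mice (adjusted p = 0.792). The TCM value passed with the mouse as a block (0.29 ± 0.09, adjusted p = 0.0331) and without the tumor of TCM mouse 1 (0.44 ± 0.14, adjusted p = 0.0259). The order of mean levels was control peri-tumor liver, control tumors, TCM tumors and TCM peri-tumor liver, each overlapping the next.

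In the tissue tests of the 5 genes other than Mt1 and Mt2, 2 of 5 passed in TCM mice and 2 of 5 in control mice. Each time Slc39a4 passed upward and Slc30a10 downward. These tests share their peri-tumor groups with the treatment contrasts, so they are not fully free of the choice of genes. The shares of all tested genes that passed were 32.9% in TCM mice and 43.2% in control mice. With the mouse as a block, Slc39a14 also passed in TCM mice and Slc30a1 in control mice, where 5044 and 6559 of all tested genes passed. Tumor and peri-tumor libraries of 4 of the 7 genes did not overlap in TCM mice and those of 3 of 7 did not in control mice, where 33.9% and 38.9% of all tested genes did not overlap. In peri-tumor liver all 7 genes had TCM and control libraries that did not overlap, where 18% of all tested genes did not. With TCM 5 of them were lower (Mt1, Mt2, Mtf1, Slc30a1 and Slc39a14) and 2 higher (Slc30a10 and Slc39a4), beside 8.86% of all tested genes lower and 9.12% higher without overlap. In tumors 1 of 7, Slc30a10, was higher without overlap, beside 8.83% of all tested genes. Both treatment counts describe the contrasts that chose the genes and carry no weight of their own.

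**Figure D3:**
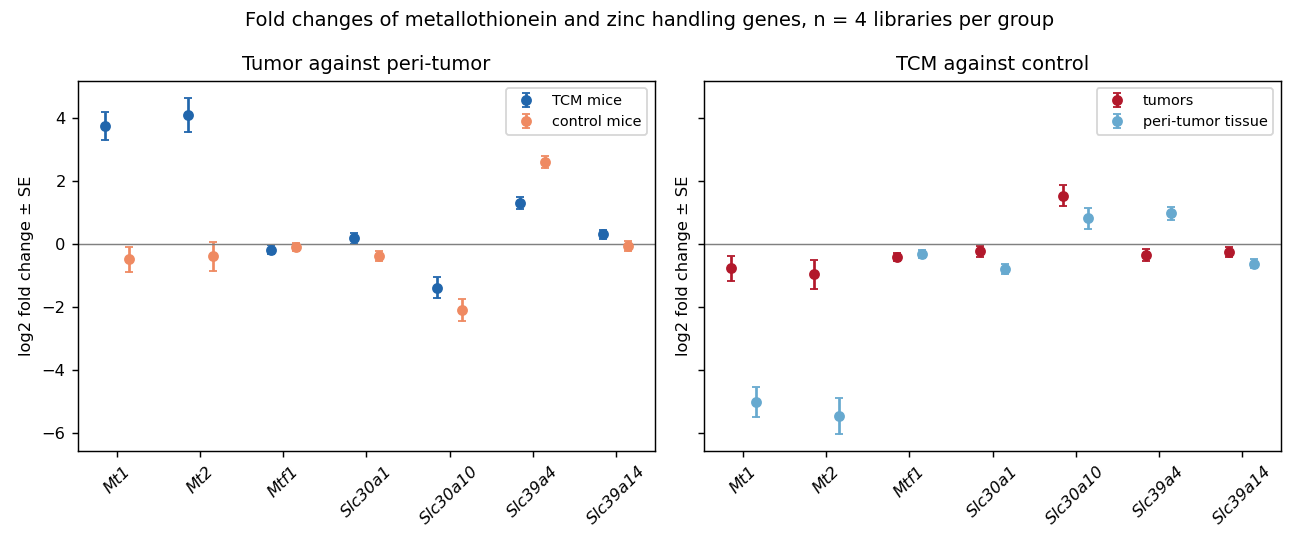
Fitted log2 fold changes of the 7 genes with their SE, for tumor over peri-tumor liver and for TCM over control, n = 4 libraries per group. Mt1 and Mt2 lie near -5 only for TCM over control in peri-tumor liver, Slc39a4 lies above 0 and Slc30a10 below 0 for tumor over peri-tumor liver in both treatments.

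Across the 16 libraries, which come in pairs from 8 mice and fall into 4 groups, log2 CPM of Mt1 ran most closely with Mt2 (Pearson r = 0.966, and 0.563 for the deviations from the group means). Slc39a14 was next (r = 0.824, deviations 0.632), followed by Slc30a1 (r = 0.719, deviations 0.444). Mtf1 had its highest r with Slc39a14 (0.591). Slc39a4 was close to uncorrelated with Mt1 (r = 0.057), which was its highest r with any of the others, and it ran against Slc30a10 (r = -0.696). Slc30a10 had no positive r with any of the other 6, its highest being -0.222 with Slc30a1. These r values describe group differences as much as single libraries, and no p is given.

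Predicted or cloned transcripts were left out of this ranking. Among the tested genes left, other than Mt2, those most like Mt1 over the 16 libraries were Armcx4 (r = 0.93, deviations 0.32), Prtn3 (0.929, deviations 0.317), Csf2ra (0.917, deviations 0.686), Cpne8 (0.913, deviations 0.563) and Ly6e (0.904, deviations 0.44). Prtn3 is a neutrophil granule protease gene and Csf2ra encodes a subunit of the GM-CSF receptor. Most like Slc39a4 were Tstd1 (0.976), Slc35f5 (0.975), Unc119 (0.974), Arhgef5 (0.966) and Tbc1d15 (0.964). Most like Slc30a10 were Ddc (0.98), Fam120aos (0.968), Gas2 (0.96), Mup9 (0.958) and Top1mt (0.956). Ddc encodes the aromatic amino acid decarboxylase, and its deviations from the group means also ran with those of Slc30a10 (r = 0.899). Mup9 shares 92.6% of the 50-base words of its longest transcript with other genes, so its level is uncertain.

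Of 22 other ZnT, ZIP and metallothionein genes, 15 passed the filter on low counts. Mt3 and Mt4, the metallothioneins of brain and stratified epithelium, did not: Mt3 had 2, 8, 0 and 2 counts summed over TCM tumors, control tumors, TCM peri-tumor liver and control peri-tumor liver. Slc30a2, Slc30a8, Slc39a2, Slc39a5 and Slc39a12 were also left out. Of the 15, 4 rose and 0 fell in tumors of TCM mice, which is 26.7% beside 32.9% of all tested genes. In tumors of control mice 7 rose and 1 fell, which is 53.3% beside 43.2% of all tested genes. The 4 in TCM mice were Slc30a6, Slc39a11, Slc39a13 and, named after its value was seen, Slc39a1 (log2 0.23 ± 0.09, edgeR, adjusted p = 0.0496). With RLE size factors 3 of the 15 rose in TCM mice, the call of Slc39a1 being lost. Their median log2 fold change was 0.34 in TCM mice and 0.42 in control mice, beside 0.00 in each for all tested genes.

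Of the other ZnT genes, Slc30a6, whose product moves zinc into the Golgi, rose in tumors of control mice (17.5 ± 1.22 CPM against 10.9 ± 1.68 in peri-tumor liver, log2 0.69 ± 0.13, edgeR, adjusted p = 0.000481). In TCM mice its log2 fold change of 0.38 ± 0.13 passed (adjusted p = 0.0341) but not with the mouse as a block (adjusted p = 0.0613), nor without the peri-tumor liver of TCM mouse 2, 3 or 4 or the tumor of TCM mouse 3 or 4 (0.30 to 0.38, adjusted p = 0.0586 to 0.107). The call was also lost without a filter on low counts (adjusted p = 0.0677) and in a fit of the TCM groups alone (adjusted p = 0.0506). Slc30a7, also of the secretory pathway, rose in control tumors, at 53.6 ± 5.59 CPM against 31.4 ± 2.06 in peri-tumor liver (log2 0.77 ± 0.15, adjusted p = 0.00086). Slc30a9 reached 101.4 ± 4.84 CPM in control tumors against 76.0 ± 4.59 CPM in their peri-tumor liver (log2 0.42 ± 0.11, adjusted p = 0.00802). In the test of the tumor effect between treatments, 0 of the 15 passed by edgeR, where 165 or 1.11% of all tested genes passed. Of the 15, 1 had an unadjusted p under 0.05. DESeq2 called 1 of the 15 and 806 of all tested genes, and limma-voom 0 of the 15 and 603 of all tested genes.

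Of the other ZIP genes, Slc39a10, a plasma membrane importer that MTF1 represses in mouse liver, showed the widest change. It had 12.5 ± 3.38 CPM in control tumors and 3.66 ± 0.97 CPM in control peri-tumor liver (log2 1.77 ± 0.24, edgeR, adjusted p = 2.94e-05). Slc39a13 rose in both treatments, by log2 0.57 ± 0.13 in TCM mice (adjusted p = 0.00356) and 0.75 ± 0.13 in control mice (adjusted p = 0.000259). Slc39a11 also rose in both, by log2 0.65 ± 0.16 in TCM mice (adjusted p = 0.0044) and 0.56 ± 0.16 in control mice (adjusted p = 0.00881). Slc39a8, a close relative of Slc39a14, fell in control tumors, at 19.1 ± 1.73 CPM against 26.7 ± 6.91 CPM in peri-tumor liver (log2 -0.48 ± 0.15, adjusted p = 0.0144).

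Between treatments, 0 of the 15 passed in peri-tumor liver by edgeR, where 4 had an unadjusted p under 0.05, DESeq2 called 2 and limma-voom 2. Of all tested genes, 14.1% passed in that comparison, 6.71% upward and 7.35% downward. Over all tested genes edgeR called 2091, DESeq2 2811 and limma-voom 3349. Without control mouse 4, 3 of the 15 passed, in a fit where 3434 of all tested genes passed. In tumors 1 rose and 2 fell with TCM, where 7.28% of all tested genes passed. Slc39a8 was the riser (27.98 ± 3.67 CPM in TCM tumors against 19.1 ± 1.73 in control tumors, log2 0.55 ± 0.15, adjusted p = 0.0343). Slc39a10 fell (6.31 ± 1.53 against 12.5 ± 3.38 CPM, log2 -0.99 ± 0.23, adjusted p = 0.0208), as did Slc39a13 (14.3 ± 1.15 against 20.6 ± 2.78 CPM, log2 -0.53 ± 0.13, adjusted p = 0.0242). These calls were lost without single tumors. For Slc39a8 they were those of control mice 2 and 3 and TCM mice 1 and 3 (0.47 to 0.57, adjusted p = 0.0576 to 0.109). The same tumors ended the call of Slc39a10 (-0.92 to -0.80, adjusted p = 0.0566 to 0.0775). For Slc39a13 they were those of control mice 1, 2 and 3 and TCM mice 1, 2 and 4 (-0.52 to -0.42, adjusted p = 0.0539 to 0.0919). Without a filter on low counts, edgeR also lost the calls of Slc39a8 (adjusted p = 0.0532) and Slc39a13 (adjusted p = 0.0547).

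Genes reported to depend on MTF1 were read as a list of 6 that includes Slc39a10. Since MTF1 represses Slc39a10, the 6 need not share a direction. In peri-tumor liver, where both metallothioneins were low with TCM, 1 of the 6 rose and 1 fell, where 14.1% of all tested genes passed. Of the 6, 5 had an unadjusted p under 0.05 by edgeR. DESeq2, which called 2811 of all tested genes, called 2 of the 6 upward and 1 downward. The median log2 fold change of the 6 was 0.59 by edgeR, beside -0.004 for all tested genes. Gclc, the catalytic subunit of glutathione synthesis, rose to 521.2 ± 97.2 CPM in TCM mice against 183.8 ± 35.2 CPM in control mice (log2 1.503 ± 0.24, edgeR, adjusted p = 0.00149). Csrp1, a LIM domain protein gene, fell to 9.40 ± 2.16 CPM in TCM mice against 20.4 ± 5.03 CPM in control mice (log2 -1.11 ± 0.21, adjusted p = 0.00446). Selenow, a small selenoprotein gene, had 54.7 ± 9.02 CPM in TCM peri-tumor liver and 76.8 ± 20.2 CPM in control peri-tumor liver, which did not pass. It was lower in control tumors than in control peri-tumor liver (18.9 ± 4.35 against 76.8 ± 20.2 CPM, log2 -2.02 ± 0.22, adjusted p = 3.26e-06). Selenow was also lower in TCM tumors than in TCM peri-tumor liver (log2 -0.61, edgeR, adjusted p = 0.035), a call lost in 6 of 16 alternatives.

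Copper also loads metallothioneins, so 15 copper handling genes were read beside them. In tumors 3 rose and 4 fell in TCM mice, where 32.9% of all tested genes passed, and 3 rose and 6 fell in control mice, where 43.2% did. Slc31a1, the copper importer CTR1, fell in both treatments (log2 -0.40 ± 0.10 in TCM mice, adjusted p = 0.00667, and -0.57 ± 0.10 in control mice, adjusted p = 0.000332, edgeR). Ccs, the copper chaperone of superoxide dismutase, had 43.2 ± 7.67 CPM in control tumors and 131.8 ± 19.0 CPM in control peri-tumor liver (log2 -1.61 ± 0.23, adjusted p = 5e-05). Ccs also fell in TCM tumors (log2 -0.70, edgeR, adjusted p = 0.0275), a call lost in 6 of 16 alternatives. Atp7b, the copper exporter lost in Wilson disease, rose in TCM tumors (67.2 ± 7.77 against 41.8 ± 2.94 CPM in peri-tumor liver, log2 0.69 ± 0.12, adjusted p = 0.000557). Atp7b also rose in control tumors (log2 0.42, edgeR, adjusted p = 0.0118), a call lost without the tumor of control mouse 1 (adjusted p = 0.0578). With TCM in peri-tumor liver 1 copper gene rose, the copper chaperone gene Sco2 (log2 1.35 ± 0.27, adjusted p = 0.00607), named after its value was seen. Steap4, a metalloreductase gene that is also on the acute phase list, fell (116.6 ± 26.0 CPM in TCM mice against 227.8 ± 40.1 CPM in control mice, log2 -0.97 ± 0.17, adjusted p = 0.00259).

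Genes that answer to other known inducers of metallothioneins were read in the same peri-tumor comparison, in which 14.1% of all tested genes passed, 6.71% upward and 7.35% downward. Of 24 interleukin-6 and acute phase genes, 0 rose and 18 fell with TCM, with a median log2 fold change of -1.20 beside 0.00 for all tested genes. Without control mouse 4, 19 fell, in a fit where 3434 of all tested genes passed, against 2091 with the mouse. The summed level of the 24 was 19300 to 23400 CPM in TCM livers and 30400 to 71000 CPM in control livers, the highest value being that of control mouse 4 and the next 34500 CPM. Lcn2, an iron-trapping acute phase gene, had 7.499 ± 3.67 CPM in TCM livers and 347.5 ± 280.2 CPM in control livers (log2 -5.54 ± 0.62, edgeR, adjusted p = 0.000189). Its log2 fold change was -4.80 ± 0.50 without the peri-tumor liver of control mouse 4 (adjusted p = 4.62e-05) and -4.81 ± 0.50 without that mouse (adjusted p = 5.24e-05). Saa4, a serum amyloid A gene, had 255.8 ± 30.6 CPM in TCM livers and 583.9 ± 94.9 CPM in control livers (log2 -1.19 ± 0.15, adjusted p = 0.000264). Crp, C-reactive protein, which is a weak acute phase protein in mice, had 366.2 ± 53.8 CPM in TCM livers and 470.3 ± 82.7 CPM in control livers and did not pass. In tumors 0 of the 24 rose and 4 fell with TCM, where 7.28% of all tested genes passed.

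Of 12 glucocorticoid-induced genes, 2 rose and 1 fell in TCM peri-tumor liver, beside 14.1% of all tested genes, and their median log2 fold change was -0.14. The risers, named after their values were seen, were Klf9 (log2 1.17 ± 0.31) and Angptl4 (log2 1.05 ± 0.33). Fkbp5, a cochaperone of the glucocorticoid receptor, was the one that fell (22.5 ± 5.45 CPM in TCM livers against 119.1 ± 39.7 CPM in control livers, log2 -2.40 ± 0.28, edgeR, adjusted p = 0.000189). Tat, tyrosine aminotransferase, had 1386 ± 365 CPM in TCM livers and 1621 ± 542.4 CPM in control livers and did not pass, and neither did Ddit4, with 7.87 ± 1.96 CPM in TCM livers and 15.1 ± 4.08 CPM in control livers. Of 13 tested targets of NRF2, the factor of the oxidative stress response, 4 rose and 1 fell with TCM in peri-tumor liver, beside 6.71% of all tested genes upward and 7.35% downward. The 4 were Me1, G6pdx, Gclc of the MTF1 list and Gsr (log2 0.69 ± 0.16), and the 1 was Hmox1, heme oxygenase (log2 -1.75 ± 0.33), the last pair named after their values were seen. G6pdx, the entry enzyme of the pentose phosphate pathway, had 29.2 ± 9.94 CPM in TCM livers and 15.8 ± 3.04 CPM in control livers (log2 0.89 ± 0.20, adjusted p = 0.0103). Me1, malic enzyme, had 372.6 ± 74.9 CPM in TCM livers and 80.4 ± 14.9 CPM in control livers (log2 2.21 ± 0.29, adjusted p = 0.000438), though it shares 26.5% of the 50-base words of its longest transcript with other genes. Srxn1, sulfiredoxin, had 69.7 ± 9.67 CPM in TCM livers and 46.1 ± 3.75 CPM in control livers and did not pass.

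Of the 8 Kupffer cell markers 0 rose and 5 fell with TCM in peri-tumor liver, of the 2 neutrophil markers that passed the filter 0 passed the test, and of the 10 hepatocyte markers 1 rose and 0 fell, where 14.1% of all tested genes passed. Without control mouse 4, 7 Kupffer cell markers and the 2 neutrophil markers fell, and 1 hepatocyte marker rose and 1 fell. In that fit 3434 of all tested genes passed, against 2091 with the mouse. The 8 Kupffer cell markers, genes of the liver's resident macrophages, summed to 526 to 603 CPM in TCM peri-tumor liver and 859 to 1300 CPM in control peri-tumor liver. The 8 neutrophil markers summed to 1.51 to 2.71 CPM in TCM peri-tumor liver, where Ngp, Ly6g and Camp had no count, and to 6.21 to 11 CPM in control peri-tumor liver, where Ly6g had none. The 10 hepatocyte markers, genes of the main cell type of the liver, summed to 106000 to 160000 CPM in TCM mice and 80500 to 118000 CPM in control mice. The part of the acute phase, glucocorticoid, NRF2, Kupffer cell and neutrophil genes in the low Mt1 and Mt2 of TCM peri-tumor liver was not tested.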

How the data were processed

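RNA was extracted with a mirVana kit and made into stranded mRNA libraries, per the labels' protocols. Builds mm9 and mm10 are named in the submitters' processing notes; aligner and counter were not given in the sources used here. Raw counts per gene, as deposited, were tested. The authors' FPKM values followed from these counts within 0.000639% in 7449 genes, with a length for Mt1 of 2267 bases that equals the sum of its transcripts' lengths and exceeds its gene span of 1246 bases. FPKM was therefore not used between genes. Gene symbols were matched by Ensembl ID for 54723 of 54838 genes.

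Counts were analysed with edgeR 4.0.16 (R 4.3.3): filterByExpr with a count minimum of 10, TMM factors, a mean per group over all 16 libraries and 12 residual degrees of freedom, the quasi-likelihood test and Benjamini-Hochberg adjustment over 14865 genes at 0.05. Errors of fold changes are SE derived from the edgeR test, as the absolute log2 fold change divided by the square root of its F value. Errors of levels are SD over 4 mice. Libraries of a group are separate mice by the animal codes in the labels. Scripts were tested on simulated data. DESeq2 1.42.0 and limma 3.58.1 (voom with sample weights) were alternatives, beside RLE factors, other filters, blocks and left-out libraries.

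Tumor and peri-tumor samples are paired because the labels give them the same animal code. Their deviations from the group means correlated by 0.24, 0.043, 0.091 and 0.11 in TCM mice and 0.15, 0.12, 0.063 and 0.23 in control mice. The 7 genes and the gene lists were chosen with earlier results of these data known. From the lists of zinc, MTF1-dependent and copper genes up to 4 genes each, and from the glucocorticoid, interleukin-6 and NRF2 lists up to 3 each, were named by the lowest p over 5 comparisons at a mean of at least 1 CPM, and the 5 genes most like Mt1, Slc39a4 and Slc30a10 by Pearson r of log2 CPM with a prior count of 2. Promoters came from RefSeq and positions from GENCODE M21.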

Additional observations from a re-analysis of the deposited data

Results flagged for a closer look

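Of 28 sets of 4 libraries, for 7 genes in 4 groups, 3 held a library far from the other 3 by Dixon's test, which chance gives in about 1 of 20 sets. Mt2 reached 218 CPM in the tumor of control mouse 4, against 34.6 to 60.2 CPM in the other control tumors. Slc30a1 had 73.6 CPM in the peri-tumor liver of TCM mouse 4, against 45.9 to 47.1 CPM in the other TCM livers. Slc39a14 had 144.8 CPM in the peri-tumor liver of TCM mouse 1, against 183 to 189.4 CPM in the others.

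For 4 list genes the tumor effect differed between TCM and control mice in edgeR's test of that difference, in which 1.11% of all tested genes passed. The log2 difference, TCM minus control, was 4.43 ± 0.76 for Lcn2 (adjusted p = 0.01). It was 3.69 ± 0.62 without control peri-tumor liver 4 (adjusted p = 0.00603) and 3.84 ± 0.66 without TCM tumor 4 (adjusted p = 0.0123). For Saa4 it was 1.29 ± 0.21 (adjusted p = 0.00618). It was 1.41 ± 0.30 for Selenow (adjusted p = 0.0367) and -1.65 ± 0.33 for Gclc (adjusted p = 0.0297). The Selenow call was lost without control tumor 1, 2 or 3, control peri-tumor liver 1 or 3, TCM peri-tumor liver 1, 2 or 3, or TCM tumor 1 or 3, and the Gclc call without control tumor 1, 2 or 3, control peri-tumor liver 1 or 2, TCM peri-tumor liver 1 or 3, or TCM tumor 3, at 1.29 to 1.46 with adjusted p = 0.0607 to 0.0825 for Selenow and -1.67 to -1.43 with adjusted p = 0.0546 to 0.07 for Gclc. With the mouse as a block the adjusted p of Gclc was 0.0516, and without a filter on low counts that of Selenow was 0.0501.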

How the results depend on the processing

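Of 770 values of the 7 genes under alternatives, 764 kept their direction and, where tested, their side of the threshold. The 4 gained calls, of Slc30a1 and Slc39a14, stand in the report, and the sign of Slc39a14 in control mice, which was not called, changed in 2, its value running from -0.15 to 0.0097 with single libraries left out. With the mouse as a replicate block no other call of the 7 genes changed, 5044 genes passed for tumor against peri-tumor liver in TCM mice, against 4897 without it, and 107 against 165 for the difference of the tumor effects. Replicate numbers across treatments mark different mice and give 2046 and 1088 calls for TCM over control in peri-tumor liver and tumors as a replicate block, against 2091 and 1082. The correlations of same-numbered deviations were 0.0066 to 0.11 in peri-tumor liver and -0.1 to -0.0043 in tumors, so the numbers do not pair these mice.

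The counts over all genes moved most. For TCM over control in peri-tumor liver, 3349 genes passed with limma-voom, 1369 in a fit of those groups alone, 3434 without control mouse 4, and 1101 to 3228 with single libraries left out, the highest without the peri-tumor liver of control mouse 4. In tumors the 1082 calls became 1805 with DESeq2, 2193 with limma-voom, 687 without a filter, 1877 without control mouse 4 and 404 to 1250 with single libraries left out. The difference of tumor effects, 165 calls, gave 806 with DESeq2, 603 with limma-voom, 79 without a filter, 714 without control mouse 4 and 58 to 665 with single libraries left out. The cause was not tested. Of 1382 values of the other named genes under alternatives, 80 lost their call and none changed sign. Mt2 rests on under 50 counts per library in TCM peri-tumor liver. Its log2 fold change of TCM over control there had an SE of 0.57, the largest of the 7 genes in that comparison. Under the alternatives it ran from -5.62 to -5.20.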
